A study of Mus musculus with 27 samples.

Results

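The genes described here encode the enzymes that turn cholesterol into bile acids and oxysterols, together with the nuclear receptor pair that restrains them. They are 10 genes of the 17655 listed in the deposited tables, chosen by symbol: *Cyp7a1*, *Cyp7b1*, *Cyp8b1*, *Cyp27a1*, *Cyp39a1*, *Ch25h*, *Hsd3b7*, *Akr1d1*, *Nr0b2* and *Nr1h4*. RNA of whole liver was sequenced from 27 mice, 3 in each of 9 groups. Every mouse, the controls included, carried *Kdm5b* fl/fl, so groups of the same sex and stage differ in the injected virus. WT mice received the vector labelled AAV8-control or AAV-control. KO mice received AAV8-CMV-Cre or AAV-CMV-Cre, whose promoter is active in many cell types. HepKO mice received AAV8-TBG-Cre, whose promoter is active in hepatocytes. WDA is a fatty Western diet combined with alcohol given in water, started in young adult mice. The 5 WDA groups (WT and KO of each sex, and HepKO females) had the virus and 8 weeks of WDA by their labels. The 4 Res groups (WT and KO of each sex) had 16 weeks of WDA, then the virus and 4 weeks of resolution without it, so they differ from the WDA groups also in the length of feeding. All WDA mice belong to experiment 11 and all Res mice to experiment 12, and stage and experiment cannot be told apart. No mouse without WDA was analysed here.

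Bile acids are made in hepatocytes by a classical route and an alternative route. The classical route starts with CYP7A1, its rate-limiting hydroxylase, and the alternative route with the mitochondrial enzyme CYP27A1, whose products are hydroxylated further by CYP7B1. CYP39A1 is an oxysterol hydroxylase, and CH25H makes an oxysterol known from macrophages. HSD3B7 and AKR1D1 remodel the steroid ring in both routes, and CYP8B1 adds the hydroxyl group of cholic acid and so sets how hydrophobic the bile acid pool is. Bile acids activate FXR, the product of *Nr1h4*, which induces *Nr0b2* (SHP), and SHP represses *Cyp7a1* and *Cyp8b1*. Oxysterols are ligands of LXR, a nuclear receptor that the study was concerned with.

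*Nr0b2* and *Cyp8b1* are shown with the 250 bases before their annotated start, because they had the widest range between livers among the members with a read in every liver and a promoter in the RefSeq table. Capitals mark the matches to the motifs named below, the sequences read 5′ to 3′ on the gene's strand, and they are RefSeq's for GRCm38.p6. No exon of the GENCODE annotation overlaps either window. *Nr0b2* lies on chromosome 4 (chr4:133553376-133556686, plus strand), with its window at chr4:133553126-133553375. *Cyp8b1* lies on chromosome 9 (chr9:121914356-121916305, minus strand), with its window at chr9:121916306-121916555.
Nr0b2: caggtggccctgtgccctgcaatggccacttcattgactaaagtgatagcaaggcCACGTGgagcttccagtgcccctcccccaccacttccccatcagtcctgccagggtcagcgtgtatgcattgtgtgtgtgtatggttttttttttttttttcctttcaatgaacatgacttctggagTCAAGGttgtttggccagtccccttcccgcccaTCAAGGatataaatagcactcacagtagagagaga
Cyp8b1: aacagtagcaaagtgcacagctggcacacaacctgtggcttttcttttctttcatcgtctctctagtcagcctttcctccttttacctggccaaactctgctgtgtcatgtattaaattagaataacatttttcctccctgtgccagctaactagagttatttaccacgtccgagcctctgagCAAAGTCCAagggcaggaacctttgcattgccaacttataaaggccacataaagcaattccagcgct
For *Cyp27a1* (chr1:74713148-74737897, plus strand), the member that was higher in resolution without overlap in each sex and with each vector, only the 30 bases around its single match are shown (chr1:74713464-74713493), because the window lies inside the gene's RefSeq span.
Cyp27a1: attggaaggggTTATGAAAggatctggcta
The *Nr0b2* window holds TCAAGG, the core bound by the nuclear receptor LRH-1, at 2 positions, and the E-box CACGTG at 1. On both strands, TCAAGG occurs in 12.5% and CACGTG in 6.02% of the 32851 promoter windows of the same length. The *Cyp8b1* window holds CAAAGTCCA, a site of the type HNF4A binds, which occurs in 0.384% of windows. The *Cyp27a1* match, TTATGAAA, was found with TTATGNAA, a loose search pattern for the D-box of the clock factors in which N is any base. This pattern occurs in 3.07% of windows and also in the *Akr1d1* window. Whether clock factors bind the *Cyp27a1* match was not tested. The nuclear receptor core AGGTCA, which is in 14% of windows, occurred in the windows of *Akr1d1* and *Nr1h4*. As for *Cyp27a1*, the *Nr1h4* window lies wholly inside the gene's RefSeq span, as do 195 of the 250 bases of the *Akr1d1* window. AGGTCA and TCAAGG can overlap on the same strand, and they do so in the *Akr1d1* window. An inverted repeat of AGGTCA with 1 base between and a direct repeat with 4 bases between were in none of the 7 member windows, and in 0.00609% and 0.0152% of all windows. No window was given for *Cyp7a1*, *Cyp7b1* and *Cyp39a1*.

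The libraries held 14634602 to 19388251 estimated reads on genes (median 17944536). The targeted gene *Kdm5b* was read in all of them, at 16.6 to 31.2 CPM (counts scaled to library size) in WT, 7.93 to 24.1 CPM in KO and 8.3 to 17.4 CPM in HepKO livers. The log2 fold change of *Kdm5b* in KO against WT was -0.54 in WDA females, -0.16 in WDA males, -0.55 in Res females and -0.59 in Res males, and -0.98 in HepKO against WT, none past the threshold. Between the groups compared, *Kdm5b* was lower without overlap in KO WDA males (20.6 to 22.03 CPM against 23.5 to 24.9 CPM), KO Res females, KO Res males and HepKO females, and overlapped in WDA females. Lower in this way were 8.7% of genes in KO WDA males, 12.5% in KO Res females and 8.99% in HepKO females. The share in KO Res males was not determined. In FPKM, which is scaled by gene length and depth, mean *Kdm5b* in WDA males was 3.68 FPKM in KO and 3.55 FPKM in WT. The other groups named stayed lower than WT in mean FPKM. The count covers the whole gene rather than the deleted part. The 6 hepatocyte markers summed to 73960.0 to 171400.0 CPM, most of it from *Alb*. In 5 libraries the 5 cholangiocyte markers summed to 154.3 to 526.8 CPM, against 16.3 to 105.0 CPM in the other 22. The same 5 had the lowest sums of the 4 pericentral hepatocyte markers, 1144 to 9168 CPM against 10610.0 to 15180.0 CPM. They are WT WDA female mouse 7, KO WDA male mouse 17, WT Res female mouse 13, WT Res male mouse 9 and KO Res male mouse 5, so each stands in a different group. Y-linked transcripts matched the labelled sex in all 27 libraries. In whole liver, fewer cells of a type and less RNA per cell cannot be told apart.

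In FPKM, the authors' reads per gene length and depth, *Cyp8b1* was the most abundant member, with a median of 465 FPKM over the 27 livers (range 83.1 to 843 FPKM). *Hsd3b7* followed at 236 FPKM (166 to 289 FPKM) and *Cyp27a1* at 186 FPKM (80.8 to 311 FPKM), and these ranges overlap. *Akr1d1* (median 80.5 FPKM) and *Nr1h4* (68.2 FPKM) came next, with ranges of 52.8 to 133 FPKM and 41.3 to 101 FPKM that overlap too. The medians of *Cyp7a1* (21.8 FPKM), *Nr0b2* (20.9 FPKM) and *Cyp39a1* (19.7 FPKM) lay within the range of each of the others. *Cyp7b1* had a median of 8.78 FPKM but spanned 1.98 to 171 FPKM. *Ch25h* was near zero, with 0 to 17 reads in a library and no read in 3 libraries, where 0 reads allow at most 3. It passed the filter on low counts only in fits of WT mice of both sexes. With its highest CPM 122-fold its lowest, *Cyp7b1* had the widest range of the members with a read in every liver. *Hsd3b7* had the narrowest, at 2.64-fold.

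**Figure D1:**
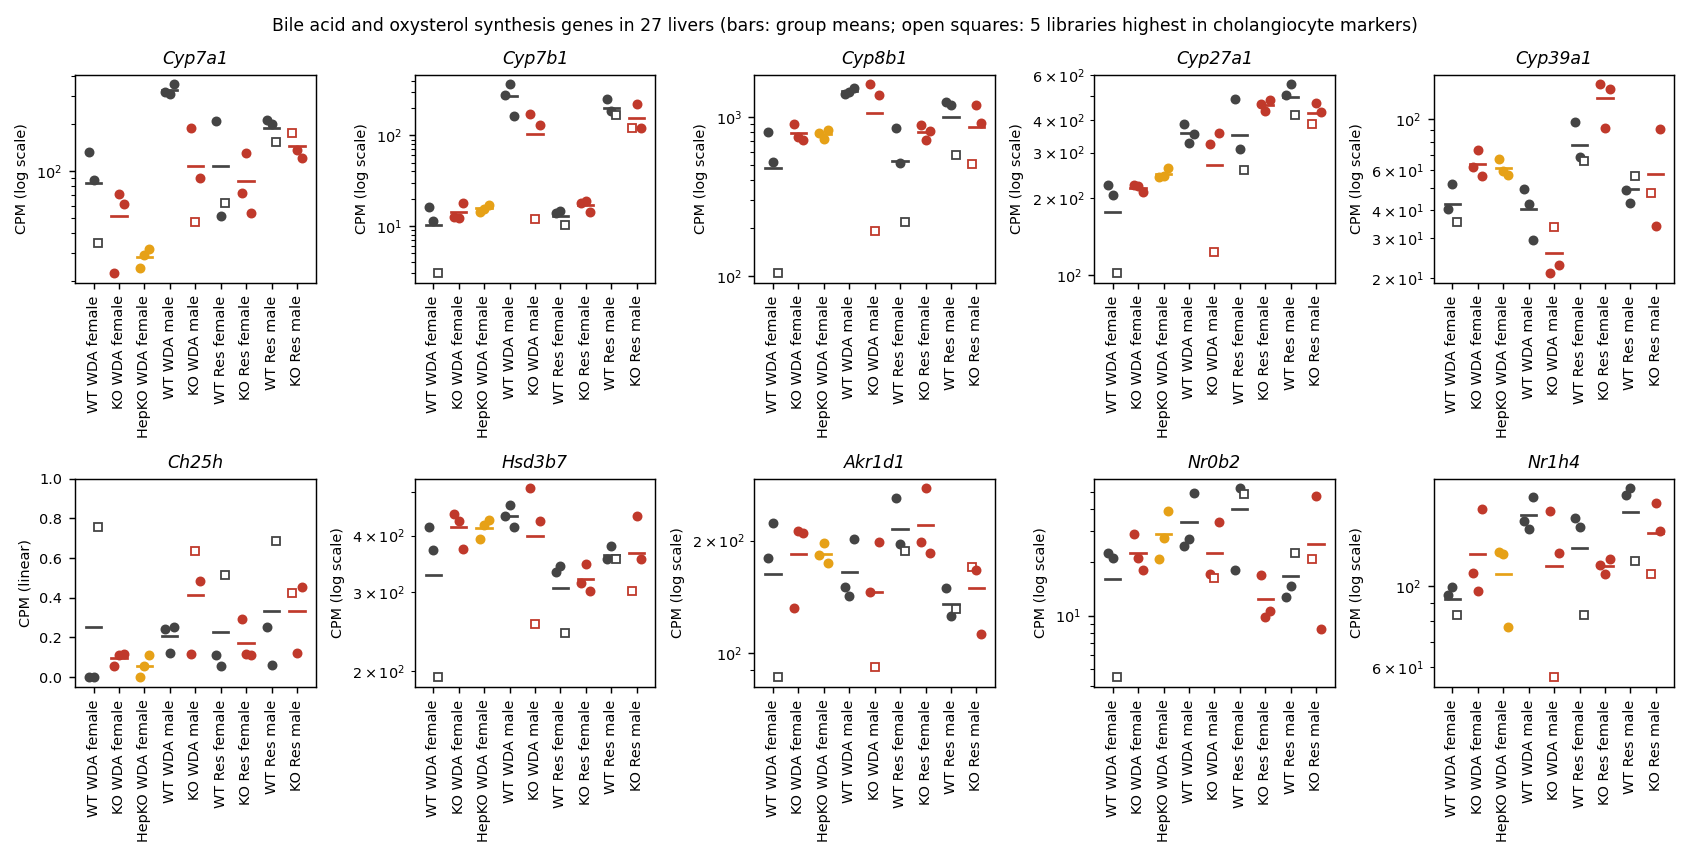
CPM (TMM-scaled) of the 10 members in each of 27 livers by group (log axis, linear for *Ch25h*), with group means as bars and the 5 libraries highest in cholangiocyte markers as open squares. The male groups sit above the female groups in *Cyp7b1* except for KO WDA male mouse 17 at 11.9 CPM, and the open squares are the lowest points of their groups in *Cyp8b1* and *Cyp27a1*.

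Most of the members' calls came from the comparison of resolution with WDA. *Cyp27a1*, which opens the alternative route, was higher after resolution in each sex and with each vector, with no overlap between stages. In KO females, the livers on WDA had 224, 222 and 209.8 CPM (mice 1, 2 and 3) and those in resolution 463, 434 and 479.8 CPM (mice 2, 3 and 4). The Res values were all well above the WDA values, and *Cyp27a1* rose by 1.07 ± 0.10 on the log2 scale (SE, n = 3 mice a group, adjusted p = 0.000609 by edgeR's quasi-likelihood test), a 2.10-fold increase. Here and throughout, a gene is called at an adjusted p under 0.05 over all genes tested. Of 12 clock genes, 5 were called higher and 2 lower in resolution in the same KO females. *Arntl* was 24.3 to 25.7 CPM on WDA and 36.6 to 37.9 CPM in resolution, *Nr1d1* was 46.9 to 82.7 CPM and 21.2 to 34.2 CPM, and *Dbp* differed by -0.22 (adjusted p = 0.476). In WT males *Cyp27a1* was 389, 328 and 354 CPM on WDA (mice 19, 20 and 21) and 501, 555 and 421 CPM in resolution (mice 7, 8 and 9), a rise of 0.48 ± 0.12 (adjusted p = 0.0448). In WT females it was 224, 204 and 102 CPM on WDA (mice 5, 6 and 7) and 485, 308 and 257 CPM in resolution (mice 1, 12 and 13), with a log2 fold change of 0.99 ± 0.36 that missed the threshold (adjusted p = 0.324). WDA mouse 7 and Res mouse 13, the lowest of their groups, are both among the 5 libraries high in cholangiocyte markers. In KO males it was 323, 124 and 358 CPM on WDA (mice 16, 17 and 18) and 389, 467 and 429.6 CPM in resolution (mice 5, 6 and 11), with a log2 fold change of 0.68 ± 0.39 (adjusted p = 0.784), the lowest value again belonging to such a library, mouse 17. In WT males 2 clock genes were called higher and 4 lower, among them *Dbp* (log2 fold change -4.21). The part of the clock genes in the *Cyp27a1* values was not tested. Genes higher in resolution without overlap were 10.1% of those tested in WT females, 20.1% in KO females, 16.4% in WT males and 6.79% in KO males. Those higher in this way in all 4 comparisons, as *Cyp27a1* was, were 0.922% (112 of 12147 genes).

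Fitted over both sexes, *Cyp27a1* rose by 0.73 ± 0.21 in WT (adjusted p = 0.0483) and by 0.88 ± 0.20 in KO mice (adjusted p = 0.0212). The WT call was near the threshold: it was lost in 11 of the 12 fits without 1 mouse (highest adjusted p = 0.0915). It held without WT WDA female mouse 7, where 2948 of 13272 genes were called. The KO call was lost without KO WDA female mouse 1, 2 or 3, or KO Res female mouse 2 or 4 (highest adjusted p = 0.0552). The call in KO females held in all 6 such fits. That in WT males held only without WT Res male mouse 9, where 1690 of 12460 genes were called. Without the 5 libraries high in cholangiocyte markers, the adjusted p was 0.00561 in WT and 0.00292 in KO mice of both sexes.

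*Cyp39a1*, the oxysterol hydroxylase, also rose in resolution, and edgeR called this in KO mice only. In KO females it was 62.1, 73.2 and 56.5 CPM on WDA (mice 1, 2 and 3) and 143, 92.1 and 136 CPM in resolution (mice 2, 3 and 4). The groups did not overlap, and *Cyp39a1* rose by 0.95 ± 0.17 (adjusted p = 0.0064). In KO males it was 21.1, 33.6 and 22.9 CPM on WDA (mice 16, 17 and 18) and 47.5, 34.1 and 90.9 CPM in resolution (mice 5, 6 and 11), again without overlap but by a small margin. In FPKM these groups did overlap, with 15.2 FPKM in WDA mouse 17 and 10.1 FPKM in Res mouse 6. The log2 fold change in KO males was 1.17 ± 0.37 (adjusted p = 0.66). Over both sexes it rose 2.08-fold in KO mice, by 1.05 ± 0.22 on the log2 scale (adjusted p = 0.014), and this call held in all 12 fits that left out a mouse. In WT mice of both sexes its log2 fold change of 0.58 ± 0.17 was just outside the threshold (edgeR adjusted p = 0.0519). DESeq2 called it there, as 2109 of 13152 genes were called. WT females had 40.5, 52.1 and 35.3 CPM on WDA and 97.8, 68.5 and 65.4 CPM in resolution. These did not overlap, with a log2 fold change of 0.86 ± 0.21 (edgeR adjusted p = 0.227), where 10.1% of genes were higher in this way. WT males had 49.6, 42.3 and 29.4 CPM on WDA and 49.0, 42.9 and 56.2 CPM in resolution, which overlap.

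*Cyp7a1*, the rate-limiting enzyme of the classical route, fell in WT males. It was 318, 308 and 357 CPM on WDA (mice 19, 20 and 21), above every other liver of the study, and 209, 199.8 and 152 CPM in resolution (mice 7, 8 and 9). The groups did not overlap, with a log2 fold change of -0.79 ± 0.13 (adjusted p = 0.0119). What share of all genes was lower in resolution without overlap was not determined. The call was lost without WT WDA male mouse 20 (adjusted p = 0.0533) or mouse 21 (0.0744), and with the dispersion of all 27 libraries (0.408). In the other groups the stages overlapped, with log2 fold changes of 0.34 ± 0.65 in WT females, 0.73 ± 0.40 in KO females and 0.42 ± 0.45 in KO males, none past the threshold. *Cyp7a1* is known to follow the time of day. The clock output gene *Dbp* was 46.3, 41.9 and 56.7 CPM in the same WT males on WDA and 1.83, 2.08 and 3.71 CPM in resolution, a log2 fold change of -4.21 ± 0.25 (adjusted p = 0.000367). Its part in the *Cyp7a1* result was not tested.

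*Hsd3b7* fell in KO females, from 446, 432 and 374 CPM on WDA to 314, 346 and 301 CPM in resolution. The groups did not overlap, though the share of all genes lower in this way was not determined. The log2 fold change was -0.38 ± 0.12 (adjusted p = 0.0454), a call that held in 1 of 6 fits without a mouse, that without KO WDA female mouse 3 (highest adjusted p of the others 0.163). *Cyp7b1*, *Cyp8b1*, *Akr1d1* and *Nr1h4* passed the threshold in no comparison of Res with WDA. *Cyp8b1* gave the lowest log2 fold change in KO males, -0.27 ± 0.70 (adjusted p = 0.944), and *Hsd3b7* in WT females, -0.10 ± 0.31 (adjusted p = 0.925). Over both sexes the lowest were *Cyp7a1* in WT, -0.22 ± 0.39 (adjusted p = 0.765), and *Nr0b2* in KO mice, -0.33 ± 0.36 (adjusted p = 0.602).

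In all, 4 of the 9 members tested were called in KO females, against 20.4% of the 12470 genes tested there, and 2 of 9 in WT males, against 11%. None was called in WT females or KO males, where edgeR called 0% of genes. At an unadjusted p under 0.05 there were 2 members in WT females (*Cyp27a1* and *Cyp39a1*) and 1 in KO males (*Cyp39a1*), beside 13.6% and 6.43% of all genes. DESeq2 called 1 in WT females (*Cyp39a1*), as 403 of 12604 genes were called, and 0 in KO males, as 79 of 12747 were. Over both sexes, 1 of 10 was called in WT mice (10.3% of genes) and 2 of 9 in KO mice (9.14%). The members' median log2 fold change was 0.25 in KO females and -0.27 in WT males, beside 0.01 and 0.02 over all genes tested. In the same KO females 3 of the 6 macrophage markers were called higher in resolution (*Vsig4*, *Csf1r* and *Lyz2*), with marker sums of 253.5 to 364.5 CPM on WDA and 375.1 to 514.3 CPM in resolution. Of the hepatocyte markers 2 of 6 were called higher there, and so were 2 of 4 periportal markers and 1 of 4 pericentral markers. The hepatocyte sums were 88390.0 to 109500.0 CPM on WDA and 142400.0 to 171400.0 CPM in resolution, which do not overlap. Most of each sum was *Alb* alone, at 68423 to 88312 CPM on WDA and 120142 to 144147 CPM in resolution. In WT males *Lyz2*, the cholangiocyte marker *Sox9*, 1 of 4 endothelial and 1 of 4 periportal markers were called higher and 1 of 4 pericentral markers lower, while the hepatocyte sums overlapped. The defining cholangiocyte genes *Krt19* and *Krt7* were each at 0 in 1 library. The part of these cells in the members' values was not tested.

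**Figure D2:**
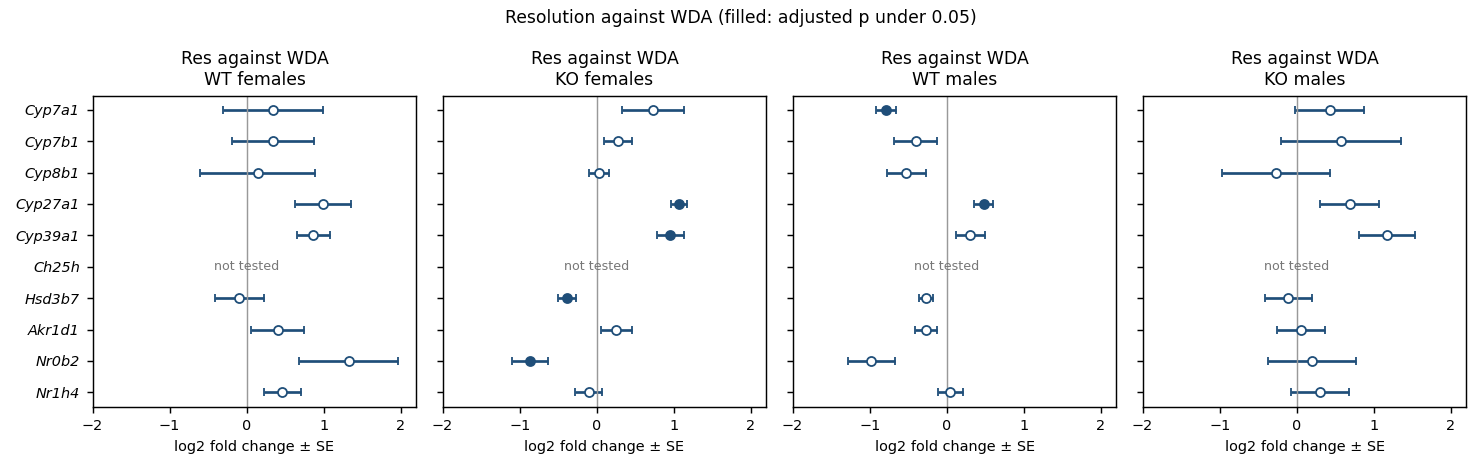
Log2 fold change of each member in resolution against WDA, with its standard error, in 4 comparisons of 3 mice against 3 (filled points: adjusted p under 0.05). *Cyp27a1* and *Cyp39a1* lie to the right of 0 in each panel, from 0.48 to 1.07 and from 0.31 to 1.17, while *Cyp7a1* is at -0.79 in WT males and to the right of 0 in the others.

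*Nr0b2*, the repressor induced by FXR, had the widest spread of fold changes over the 4 comparisons of stage. In KO females it was 28.8, 21.02 and 18.1 CPM on WDA (mice 1, 2 and 3) and 17.02, 9.8 and 10.6 CPM in resolution (mice 2, 3 and 4), and it fell by 0.86 ± 0.24 on the log2 scale (adjusted p = 0.0301). The groups did not overlap, by a small margin, and the share of all genes lower in this way was not determined. The call was lost without KO WDA female mouse 1 or 2 or KO Res female mouse 3 or 4 (highest adjusted p = 0.111). In WT males it was 24.8, 26.9 and 49.1 CPM on WDA and 12.7, 14.7 and 22.6 CPM in resolution, with a log2 fold change of -0.98 ± 0.30 (adjusted p = 0.0726). Without WT Res male mouse 9, which is among the 5 libraries high in cholangiocyte markers, that value was -1.27 (adjusted p = 0.016). In that fit 1690 of 12460 genes were called. Without WT WDA male mouse 21 the value was -0.61 (adjusted p = 0.225). In WT females the value had the opposite sign, from 22.5, 21.2 and 4.49 CPM on WDA to 18.1, 52.2 and 48.6 CPM in resolution, with a log2 fold change of 1.32 ± 0.64 (adjusted p = 0.417). The highest and lowest of these 6 values belong to mouse 12 in resolution and mouse 7 on WDA. KO males had 17.3, 16.4 and 33.6 CPM on WDA and 20.9, 46.9 and 8.38 CPM in resolution, which overlap. *Nr1h4* itself ranged over 3.29-fold in all livers and edgeR called it in no comparison with all libraries, while DESeq2 called it higher in WT males than in WT females.

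No member differed past the threshold between KO and WT livers. In each single-sex comparison of KO with WT, edgeR called 0 of 9 members tested and 0% of all genes, on WDA and in resolution. The members at an unadjusted p under 0.05 were 1 in WDA females (*Cyp39a1*), 2 in WDA males (*Cyp7a1* and *Cyp39a1*), 2 in Res females (*Cyp39a1* and *Nr0b2*) and 0 in Res males. The share of all genes at that level was 3.11%, 7.71%, 19.2% and 1.45%. DESeq2 called 1 member, *Nr0b2* in Res females, as 634 of 12577 genes were called there. In WDA females, WDA males and Res males it called 0 members, and 8, 17 and 7 genes in all. Over both sexes 0 of 9 were called on WDA and in resolution, with *Cyp7a1* at an unadjusted p under 0.05 on WDA, no member in resolution, and 0 by DESeq2 in both.

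The largest of these differences were in *Cyp7a1* on WDA and *Nr0b2* in resolution. In the other direction, *Cyp39a1* was higher in KO WDA females without overlap, by 0.57 ± 0.18 (edgeR adjusted p = 0.978). The share of all genes higher in this way was not determined. In WDA males, *Cyp7a1* was 186, 47.6 and 90.3 CPM in KO (mice 16, 17 and 18), all below the 308 to 357 CPM of WT. The log2 fold change was -1.59 ± 0.45 (adjusted p = 0.588), with 8.7% of genes lower in KO without overlap. KO mouse 17 is among the 5 libraries high in cholangiocyte markers, and without it the value was -1.24 (adjusted p = 0.303). *Dbp* was 50.03, 12.0 and 68.3 CPM in these KO males. In WDA females *Cyp7a1* was 131, 86.9 and 34.7 CPM in WT (mice 5, 6 and 7) and 22.4, 71.3 and 61.7 CPM in KO (mice 1, 2 and 3), which overlap, with a log2 fold change of -0.71 ± 0.54 (adjusted p = 0.978). In Res females, *Nr0b2* was lower in KO without overlap, 17.02, 9.8 and 10.6 CPM against 18.1, 52.2 and 48.6 CPM, with a log2 fold change of -1.72 ± 0.40 (adjusted p = 0.109), where 12.5% of genes were lower in this way. WT mouse 1 lies next to the KO values. Without this mouse edgeR called *Nr0b2* at -2.06 (adjusted p = 0.0116), as 852 of 12814 genes were called. DESeq2 called *Nr0b2* with all mice (adjusted p = 0.000504), as 634 of 12577 genes were called. Without WT mouse 12 the value was -1.46 (edgeR adjusted p = 0.211).

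HepKO livers had the lowest mean *Cyp7a1* of the 9 groups, 24.0, 29.0 and 31.7 CPM (mice 13, 14 and 15), each below the 34.7 CPM of the lowest WT liver. The log2 fold change against WT was -1.58 ± 0.43 (adjusted p = 0.316), and 8.99% of genes were lower in HepKO without overlap. DESeq2 called this difference (adjusted p = 0.0205), as 230 of 12413 genes were called. Without WT mouse 7, another of the 5 libraries high in cholangiocyte markers, it was -1.95 and edgeR called it (adjusted p = 0.00215). In that fit 349 of 12471 genes were called. Without WT mouse 5 the *Cyp7a1* value was -1.11 (edgeR adjusted p = 0.472). Beside it, *Dbp* was 13.6, 15.8 and 22.6 CPM in HepKO and 3.15, 32.5 and 4.8 CPM in WT livers, and its part was not tested. Of 9 members tested, edgeR called 0 in HepKO against WT, as 0% of genes, with 2 at an unadjusted p under 0.05 (*Cyp7a1* and *Cyp39a1*), beside 10.1% of all genes. The highest member was *Nr0b2* at 0.86 ± 0.55 (adjusted p = 0.626). *Cyp27a1* and *Cyp39a1* were higher in HepKO than in WT without overlap, by 0.49 ± 0.28 and 0.52 ± 0.16 (edgeR adjusted p = 0.597 and 0.392). For these 2 the share of all genes higher in this way was not determined.

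Against KO females, HepKO *Cyp7a1* differed by -0.88 ± 0.34 (adjusted p = 0.81), with KO mouse 1 at 22.4 CPM below all 3 HepKO livers. Without that mouse the value was -1.24 (adjusted p = 0.0371), as 5 of 12480 genes were called, and without KO mouse 2 it was -0.57 (adjusted p = 0.977). *Dbp* was higher in the same HepKO livers by 1.85 (adjusted p = 0.0328), at 13.6 to 22.6 CPM against 4.52 to 5.07 CPM. The part of *Dbp* was not tested. edgeR called 0 of 9 members here against 0.0162% of genes, with *Cyp7a1* alone at an unadjusted p under 0.05 beside 5.74% of all genes, and DESeq2 called 0. The other members were close, from -0.18 ± 0.22 for *Nr1h4* to 0.35 ± 0.24 for *Nr0b2* (adjusted p = 0.947). Among them *Cyp27a1* was higher in HepKO without overlap, by 0.18 ± 0.09 (edgeR adjusted p = 0.886), and the share of all genes doing so was not determined.

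**Figure D3:**
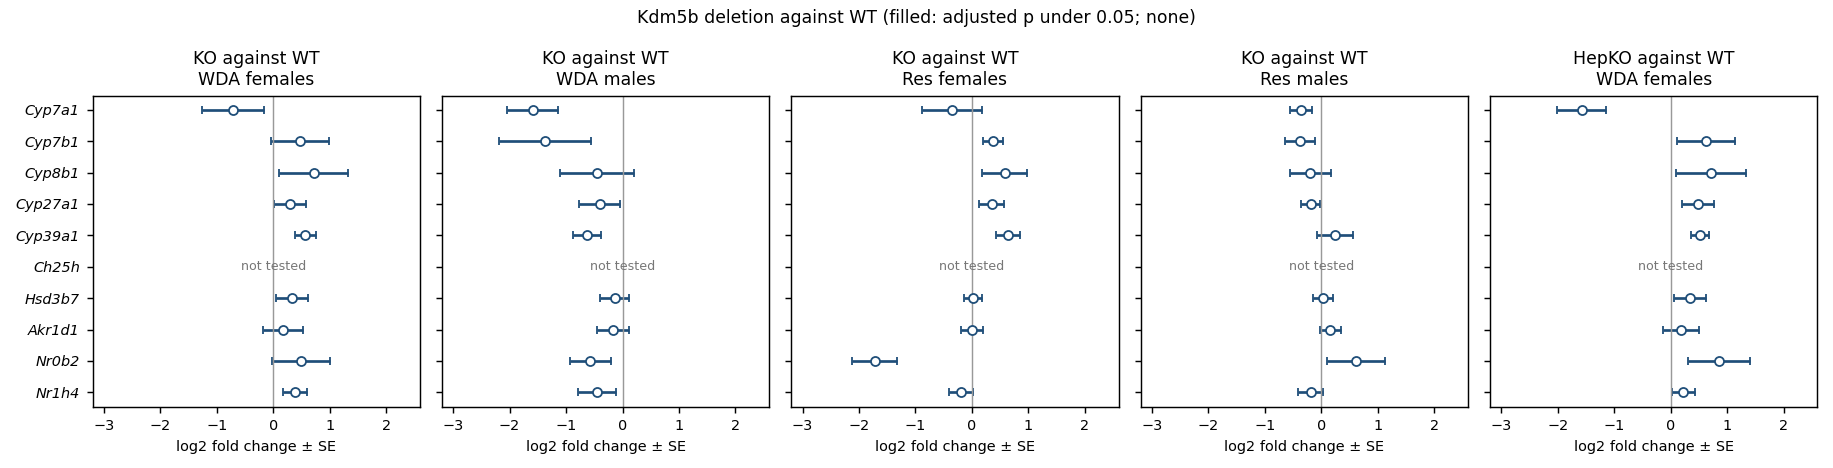
Log2 fold change of each member in KO or HepKO against WT, with its standard error, in 5 comparisons of 3 mice against 3 (open points: adjusted p of 0.05 or more). No point is filled, and the values farthest from 0 are *Nr0b2* in Res females at -1.72, *Cyp7a1* in WDA males at -1.59 and *Cyp7a1* in HepKO females at -1.58.

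The remaining extremes of the KO comparisons did not pass the threshold either. On WDA, *Cyp8b1* was highest in females at 0.72 ± 0.61 (adjusted p = 0.978) and *Hsd3b7* in males at -0.14 ± 0.25 (adjusted p = 0.841). In resolution, *Cyp39a1* was highest in females at 0.64 ± 0.21 (adjusted p = 0.169), while males ranged from *Cyp7b1* at -0.38 ± 0.27 to *Nr0b2* at 0.61 ± 0.51 (adjusted p = 1 for each). *Cyp27a1*, the member that rose in resolution, differed between KO and WT by 0.35 ± 0.22 in Res females (adjusted p = 0.401) and -0.19 ± 0.17 in Res males. Over both sexes, *Cyp7a1* was lowest on WDA at -1.15 ± 0.41 and *Cyp8b1* highest at 0.13 ± 0.52 (adjusted p = 1 for each). In resolution over both sexes, *Nr0b2* was lowest at -0.55 ± 0.51 (adjusted p = 0.787) and *Cyp39a1* highest at 0.44 ± 0.22 (adjusted p = 0.645).

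*Cyp7b1*, the oxysterol hydroxylase of the alternative route, was far higher in males. Females of all 5 groups had 3.02 to 19.1 CPM. WT males had 276, 369 and 163 CPM on WDA (mice 19, 20 and 21) and 251, 183 and 169 CPM in resolution (mice 7, 8 and 9), none within the female range. The difference in WT mice over both stages was 4.34 ± 0.38 on the log2 scale (adjusted p = 4.64e-05), or 20.2-fold higher in males. KO males had 171, 11.9 and 129 CPM on WDA (mice 16, 17 and 18) and 119, 221 and 121 CPM in resolution (mice 5, 6 and 11). Mouse 17 alone lies among the females, and the difference in KO mice was 3.02 ± 0.46 (adjusted p = 0.00259). Both calls held in all 12 fits that left out a mouse.

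*Cyp39a1* had the opposite direction in KO mice, where the male values were lower, with a log2 fold change of -1.19 ± 0.22 (adjusted p = 0.00792). KO females had 56.5 to 73.2 CPM on WDA and 92.1 to 143 CPM in resolution, and KO males 21.1 to 33.6 CPM and 34.1 to 90.9 CPM, so KO Res male mouse 11 was close to the females. In WT mice the difference was -0.36 ± 0.17 (adjusted p = 0.363). edgeR called 1 of 10 members between the sexes in WT mice (2.58% of genes) and 2 of 9 in KO mice (7.27%). Without the 5 libraries high in cholangiocyte markers, 4 members were called higher in WT males, *Cyp27a1*, *Cyp7b1*, *Cyp8b1* and *Nr1h4*, as 704 of 12781 genes were called. With all libraries DESeq2 called 5 in WT mice, these 4 and *Cyp7a1*, as 698 of 13152 genes, and 3 in KO mice, *Cyp7b1*, *Cyp39a1* and *Cyp7a1*, as 1664 of 13036 genes.

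No interaction was called for a member. KO by sex gave 0 of 9 on WDA and in resolution, KO by stage 0 of 9 in females and in males, and stage by sex in WT mice 0 of 10, with 0% of genes in the first 4 and 0.0076% in the last. DESeq2 called 0 members in each. An unadjusted p under 0.05 was reached by *Cyp39a1* (KO by sex, WDA), *Cyp7b1* and *Nr0b2* (KO by sex, Res), *Nr0b2* (KO by stage, females), *Cyp7a1* (KO by stage, males) and *Nr0b2* (stage by sex). The shares of all genes at that level were 11.4% and 11.5% for KO by sex on WDA and in resolution, 6.21% and 3.23% for KO by stage in females and males, and 7.71% for stage by sex. *Nr0b2* gave the largest value in 3 of the 5. It was 2.31 ± 0.75 for KO by sex in resolution (adjusted p = 0.293), -2.19 ± 0.74 for KO by stage in females (adjusted p = 0.782) and -2.32 ± 0.78 for stage by sex (adjusted p = 0.522). *Cyp7a1* was highest for KO by stage, at 0.37 ± 0.87 in females (adjusted p = 0.952) and 1.24 ± 0.53 in males (adjusted p = 0.932), where *Hsd3b7* was lowest at 0.18 ± 0.33 (adjusted p = 0.947). For KO by sex, *Cyp7b1* was lowest on WDA at -1.85 ± 1.09 (adjusted p = 0.512), *Akr1d1* highest at -0.35 ± 0.50 (adjusted p = 0.785), and *Cyp8b1* lowest in resolution at -0.78 ± 0.61 (adjusted p = 0.64). *Ch25h* was highest for stage by sex at 0.90 ± 1.84 (adjusted p = 0.933), on 17 or fewer reads a library. The opposite directions of *Nr0b2* in WT females and WT males are therefore not shown to differ.

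Livers of the same group differed in these genes along with the cholangiocyte markers. In all 5 libraries high in cholangiocyte markers, *Cyp8b1*, *Cyp27a1*, *Cyp7b1*, *Hsd3b7* and *Nr1h4* were each the lowest of the 3 CPM values of the group. For *Hsd3b7* in WT Res male mouse 9 the margin was small (354.94 CPM against 355.19 CPM in mouse 7). This depended on the scaling, and in FPKM it held for *Cyp8b1* alone. In FPKM, *Nr1h4* was highest of its group in WT WDA female mouse 7, *Hsd3b7* in WT Res male mouse 9 and *Cyp27a1* in KO Res male mouse 5. *Cyp7b1* was not lowest in that mouse 5. *Cyp8b1* was 105 CPM in WT WDA female mouse 7 against 808 and 517 CPM in mice 5 and 6, and 193 CPM in KO WDA male mouse 17 against 1604 and 1360.3 CPM in mice 16 and 18. It was 219 CPM in WT Res female mouse 13 against 852 and 510.5 CPM, 577 CPM in WT Res male mouse 9 against 1229 and 1193 CPM, and 503 CPM in KO Res male mouse 5 against 1183 and 918 CPM. In CPM, *Cyp7a1* was lowest in 3 of the 5, *Akr1d1* in 3, and *Cyp39a1* and *Nr0b2* in 2 each. How large a share of all genes was lowest in these libraries was not determined, so the counts only describe the members. *Ch25h*, in contrast, was the highest of its group in 4 of the 5, with 17 reads in WT WDA female mouse 7, where both other livers of the group had 0. The part of other cells in these values was not tested.

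**Figure D4:**
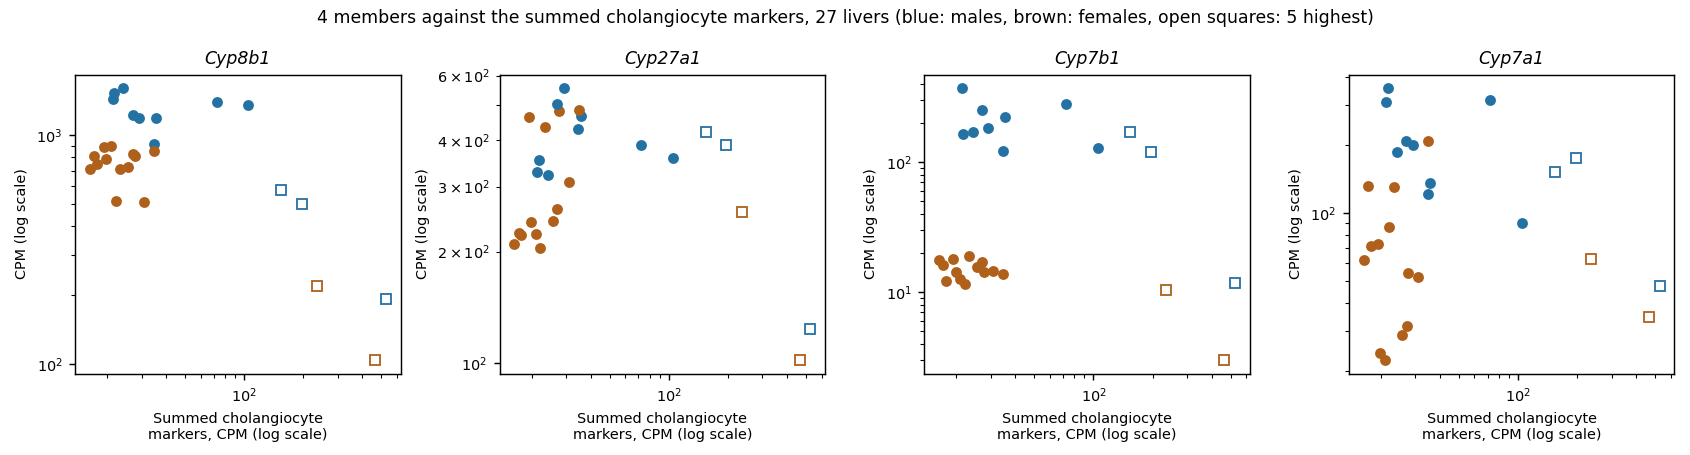
CPM of *Cyp8b1*, *Cyp27a1*, *Cyp7b1* and *Cyp7a1* against the summed CPM of 5 cholangiocyte markers (both axes log) in 27 livers, males in blue and females in brown, with the 5 libraries highest in the markers as open squares. WT WDA female mouse 7 and KO WDA male mouse 17, the squares farthest to the right, have the lowest *Cyp8b1*, at 105 and 193 CPM, and the lowest *Cyp27a1*, at 102 and 124 CPM.

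Within groups, the members also moved with each other and with a few other genes. After each group's mean was removed, the Pearson correlation over the 27 libraries was 0.95 between *Cyp8b1* and *Cyp27a1*, 0.92 between *Cyp8b1* and *Hsd3b7*, 0.86 between *Cyp7b1* and *Cyp8b1*, and -0.79 between *Ch25h* and *Hsd3b7*. The last value is limited by the 0 to 17 reads of *Ch25h* in a library. Among 9763 other genes of at least 2 mean log2 CPM, those most like *Cyp27a1* were *Cyp8b1* (0.95), *Plpbp* (0.95) and *Slc27a5* (0.95), the last a bile acid CoA ligase. Those most like *Cyp7a1* were *Fbxl4* (0.85), *9430038I01Rik* (0.82) and *Asl* (0.82), and those most like *Nr0b2* were *Mpv17* (0.81), *Gabbr2* (0.81) and *Pla2g6* (0.80). These points share libraries, scaling and cell content, so the values are descriptions.

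Other genes of the pathway run from side-chain shortening and conjugation to the receptors upstream. Of 14 listed, 13 were in the tables and tested (*Fgf15* was not listed there), and in KO females after resolution 3 of 13 fell and 0 rose, against 20.4% of all genes called in either direction, with a median log2 fold change over the list of -0.26 beside 0.01 over all genes. They were *Cyp46a1*, a cholesterol hydroxylase known from brain (-1.16 ± 0.15, adjusted p = 0.00187), *Scp2*, a peroxisomal thiolase (-0.48 ± 0.13, adjusted p = 0.0266), and *Nr5a2*, which encodes LRH-1 (-0.48 ± 0.13, adjusted p = 0.0279). In WT males 2 of 13 fell and 0 rose, against 11% of all genes called: *Amacr*, a racemase of bile acid intermediates (-0.60 ± 0.12, adjusted p = 0.0217), and *Scp2* (-0.54 ± 0.13, adjusted p = 0.0357). In WT mice of both sexes *Acox2*, the peroxisomal oxidase of the side chain, fell (-0.44 ± 0.09, adjusted p = 0.0128). It was 1 of 13 called, against 10.3% of all genes. Between the sexes, *Scp2* was higher in WT males (0.81 ± 0.16, adjusted p = 0.0185) and *Cyp46a1* lower in KO males (-1.37 ± 0.38, adjusted p = 0.0441). Each was 1 of 13 called, against 2.58% of all genes in WT and 7.27% in KO mice. Of the 4 FXR targets listed, 2 were tested there, and *Abcb11*, the bile salt export pump, fell in KO females after resolution, from 417, 393 and 326 CPM to 229, 289 and 245 CPM (-0.58 ± 0.14, adjusted p = 0.0182). In the 13 comparisons between vectors and interactions, edgeR called 0 genes of either list. At an unadjusted p under 0.05 there were 0 to 3 of the pathway genes and 0 to 1 of the FXR targets. The highest counts, 3 of 13 and 1 of 2, came from KO against WT Res females, where 19.2% of all genes reached that level.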

How the data were processed

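Whole-liver RNA of 27 *Kdm5b* fl/fl mice was sequenced on a BGI protocol. The submitters' processing notes name HISAT, Bowtie2 and GRCm38.p6, and the counting tool is not given in the sources used here. The authors deposited estimated counts per gene that need not be whole (7.34 to 8.09% were not, at a tolerance of 1e-06) and FPKM values, which are scaled by gene length and depth. The FPKM values deposited by the authors were used to compare levels between genes and, where stated, as a second scaling for the order of livers.

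The counts of the 4 tables were joined by gene, with genes missing from a table set to 0, and rounded. Groups came from the sex and treatment labels. Comparisons used edgeR's quasi-likelihood test (edgeR 4.0.16, R 4.3.3) with TMM scaling and a filter at 10 counts, each fitted on the libraries compared, with both sexes or stages as a term where pooled. P-values were adjusted over all genes tested by the Benjamini-Hochberg method at 0.05. The test sets each difference against the spread between mice of a group. For Res against WDA it holds no spread between experiments, since each stage is a single experiment. Standard errors are the log2 fold change over the square root of F. CPM values use TMM over all libraries. DESeq2 1.42.0, other scalings, no filter, a dispersion from all libraries and fits without each mouse were alternatives. A fold change with its error is given for called members and for the largest and smallest in each comparison. Libraries held 14634602 to 19388251 counts, so a gene at 0 counts allows up to 3, for counting error only. The code was tested on simulated data. RefSeq promoters of GRCm38.p6 matched 7 of 10 members. The members and gene lists were chosen with earlier results of these data known.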

Additional observations from a re-analysis of the deposited data

How the results depend on the processing

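Mice were left out in turn in every comparison, and the number of members called then ranged from 0 to 1 for KO against WT in Res females, HepKO against WT and HepKO against KO, from 0 to 3 for Res against WDA in WT males, 2 to 4 in KO females, 0 to 2 in WT and 1 to 3 in KO mice of both sexes, and from 1 to 3 and 2 to 3 for males against females in WT and KO mice. In the remaining comparisons it was 0 throughout. DESeq2 called 1 member for KO against WT in Res females, HepKO against WT, and Res against WDA in WT females, beside 634, 230 and 403 genes. It called 4 for Res against WDA in WT males and 2 in WT mice of both sexes, beside 1724 and 2109 genes. Between the sexes it called 5 in WT mice and 3 in KO mice, beside 698 and 1664 genes. With the dispersion of all libraries the members called were 1 for Res against WDA in WT females, 0 in WT males and 2 in KO females, and 3 between the sexes in WT mice. With no filter 1 member was called in WT males and 0 in WT mice of both sexes. With library totals 2 were called in WT mice of both sexes and 2 between the sexes in WT mice. Without the 5 libraries highest in cholangiocyte markers, an alternative chosen after seeing the data, 1 was called for HepKO against WT, 2 for Res against WDA in WT mice of both sexes and 4 between the sexes in WT mice. The number of all genes called changed as well. Without WT WDA female mouse 7, HepKO against WT went from 0 to 349 of 12471 genes. In WT mice of both sexes, Res against WDA then had 2948 of 13272 genes called, against 1349 of 13152 with all mice. The counts of members here therefore only describe the members. The cause of these changes was not tested.

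Values changed sign where they were small. *Hsd3b7* in KO against WT WDA males was 0.0050 with library totals and 0.091 without the 5 libraries, and ranged from -0.35 to 0.091 over left-out mice. Over left-out mice *Nr0b2* in KO against WT Res males ranged from -0.18 (without KO mouse 6) to 1.01, *Hsd3b7* in Res against WDA WT females from -0.36 to 0.12, *Cyp8b1* in Res against WDA KO males from -0.76 to 0.17, and *Cyp8b1* in KO against WT on WDA over both sexes from -0.15 (without WT female mouse 7) to 0.42. For KO by stage, *Cyp7a1* in females ranged from -0.10 to 1.27 and *Hsd3b7* in males from -0.082 (without KO WDA male mouse 17) to 0.42. *Ch25h* for stage by sex ranged from -4.37 (without WT WDA female mouse 7) to 2.33, and *Akr1d1* for KO by sex on WDA was 0.18 without the 5 libraries.

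Mouse numbers are shared between stages only in part and do not pair mice. With the replicate block over KO females 2 and 3, 3 members were called for Res against WDA, and *Hsd3b7* was lost (-0.29, edgeR adjusted p = 0.319). Counts of 17 or fewer limit *Ch25h*.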
